A study of Mus musculus with 135 samples.

Results

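The genes described here are 10 genes of meningeal fibroblasts and of their matrix: the fibrillar collagen chains Col1a1, Col1a2 and Col3a1, the small leucine-rich proteoglycans Dcn (decorin), Lum (lumican) and Fmod (fibromodulin), the enzyme gene Aldh1a2, the transporter genes Slc6a13 and Slc22a6, and the growth factor gene Igf2. They were found by symbol, and all 10 were present among the 55416 genes of the cortex table and of the hippocampus table. Bulk RNA was sequenced from the cerebral cortex (68 libraries with a known group) and the hippocampus (66 libraries) of 6-month-old male Townes mice, in which human globin genes stand in for the mouse ones. SS mice carry the sickle allele of the human beta globin gene, and AA mice carry the normal adult allele and served as controls. Repeated social defeat (RSD) is a stress in which group-housed males meet an aggressive male stranger in their cage, here for 2 hours a night over 6 nights, and minocycline, a tetracycline antibiotic, was given in the drinking water. The cortex libraries used came from 12 AA, 3 AA + RSD, 18 AA + RSD + minocycline and 1 AA + minocycline mice, and from 8 SS, 6 SS + RSD, 14 SS + RSD + minocycline and 4 SS + minocycline mice. In the hippocampus there were 11 AA and 7 SS libraries and the same numbers in the other groups. Within a tissue each library was a separate mouse, and most mice gave a library of each tissue.

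The meninges wrap the brain, and their fibroblasts lay down the collagen sheet of the brain surface and follow the larger vessels inwards. They make type I and type III collagen and the proteoglycans that bind collagen fibrils, synthesise retinoic acid, and carry transporters that are scarce in brain tissue proper. Messenger RNA of most such genes in a dissected brain piece is thought to come largely from meninges and vessel walls rather than from neurons. This need not hold for each gene in each tissue. Hippocampal Dcn followed other fibroblast genes only weakly (r = 0.29), and the cells it came from were not tested. In bulk tissue, fewer cells of a type and less RNA per cell cannot be told apart.

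Levels are given as CPM, read counts scaled to library size, with library sizes adjusted by TMM, edgeR's trimmed mean of M values. Cortex libraries held 16295042 to 107713193 reads on genes, and hippocampus libraries 12869149 to 68731008. A count of 0 did not occur for any of the 10 genes, and the lowest count was 1 read, for Igf2 in the cortex. Mouse numbers in the labels form several series, here A, B and C. Every mouse given RSD without minocycline is of series A, and every mouse given both is of series B or C, so minocycline under RSD and the number series cannot be told apart from these groups alone. One pair of mice (9887, labelled SS + minocycline, and 9877, labelled AA + RSD + minocycline) held identical counts in each tissue and was left out of every test. The libraries of mouse 9674 (AA + RSD) went against their tissue labels: the library labelled cortex held 416 CPM of 6 hippocampal neuron markers against 21.4 to 68.3 CPM in the other cortex libraries, and the library labelled hippocampus held 38.1 CPM against 282 to 723 CPM. Cortical neuron markers also went against the labels of mouse 9674, at 141 CPM in the library labelled cortex and 656 CPM in that labelled hippocampus. The other cortex libraries held 225 to 835 CPM, and the other hippocampus libraries 110 to 397 CPM. Both marker sets thus lay in the range of the other tissue, and both libraries were kept as labelled. Red cell genes went against the genotype label of 4 more mice used in the tests. Alas2, a heme synthesis gene of immature red cells, had cortical medians of 93.7 CPM in the other SS and 5.06 CPM in the other AA libraries, but 99.9 CPM in mouse 5844 (AA), 49.6 CPM in mouse 5853 (AA + RSD + minocycline) and 6.27 CPM in mouse 7078 (SS + RSD + minocycline). The identical pair, counted in both medians, held 9.81 CPM. That was the lowest of the other SS libraries and lay within the 2.76 to 20.3 CPM of the other AA libraries. Mouse 9631 (AA) held 1944 cortical reads of the mouse globin gene Hbb-bs, which Townes mice lack, against 0 to 8 in the rest. Calls that change without one of these mice are given beside the result.

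The promoters of the genes on which the comparisons turn are shown first. Col1a2 and Col3a1 are the pair that passed a test in a treatment comparison, and Aldh1a2 had the largest fitted difference between number series among the control mice. The sequences run from 250 bases before to 50 bases after the transcription start, on the plus strand of GRCm38.p6, and were taken from RefSeq, which held entries for 7 of the 10 genes. Capitals mark the letters CCAAT or TATAAA found on either strand.
Col1a2, chr6:4505368-4505667: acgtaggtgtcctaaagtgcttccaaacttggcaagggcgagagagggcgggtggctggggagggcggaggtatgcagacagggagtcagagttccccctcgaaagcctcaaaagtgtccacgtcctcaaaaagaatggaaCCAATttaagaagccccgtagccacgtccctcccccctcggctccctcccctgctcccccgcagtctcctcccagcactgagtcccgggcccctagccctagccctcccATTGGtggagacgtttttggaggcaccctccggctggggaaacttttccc
Col3a1, chr1:45311288-45311587: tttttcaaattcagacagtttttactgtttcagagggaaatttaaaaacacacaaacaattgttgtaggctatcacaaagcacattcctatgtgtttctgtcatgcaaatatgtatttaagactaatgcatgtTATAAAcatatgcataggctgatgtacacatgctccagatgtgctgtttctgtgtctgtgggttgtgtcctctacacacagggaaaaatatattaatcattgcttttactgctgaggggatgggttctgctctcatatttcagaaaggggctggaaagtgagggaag
Aldh1a2, chr9:71215539-71215838: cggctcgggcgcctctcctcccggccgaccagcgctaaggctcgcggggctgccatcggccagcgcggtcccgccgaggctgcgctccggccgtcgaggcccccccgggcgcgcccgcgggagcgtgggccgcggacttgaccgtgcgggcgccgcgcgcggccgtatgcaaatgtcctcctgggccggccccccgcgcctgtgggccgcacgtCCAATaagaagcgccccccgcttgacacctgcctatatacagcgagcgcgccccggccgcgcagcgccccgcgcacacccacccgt
CCAAT was found 2 times in the Col1a2 window and 1 time in that of Aldh1a2, at -36 from the start, and not in this window of Col3a1. TATAAA was found in the Col3a1 window only, at -117. Of 32851 mouse promoters of the same length, 37.4% held CCAAT on either strand and 13.6% held TATAAA, so both matches are common and are given as descriptions.

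Type I collagen is a triple helix of 2 alpha-1 chains from Col1a1 and 1 alpha-2 chain from Col1a2. Col1a1 lies at chr11:94827050-94843868 on the plus strand of GRCm39, and Col1a2 at chr6:4504814-4541555, also on the plus strand. In the cortex Col1a1 ranged from 1.55 to 11.95 CPM over all libraries with a median of 3.59 CPM, and Col1a2 from 2.50 to 24.1 CPM with a median of 8.41 CPM. Both maxima came from the single AA + minocycline mouse. The hippocampus gave medians close to these, 4.88 CPM for Col1a1 and 7.83 CPM for Col1a2. Col3a1, the chain of type III collagen, lies at chr1:45350698-45395840 on the plus strand and was the scarcest of the collagens, at a median of 1.09 CPM (0.319 to 5.61) in the cortex and 1.51 CPM (0.543 to 6.28) in the hippocampus.

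Decorin binds collagen fibrils and several growth factors, and Dcn was the gene of this group that separated the tissues most. It lies at chr10:97315275-97358155 (plus strand). In the cortex of AA mice Dcn lay between 4.51 and 12.1 CPM with a median of 5.22 CPM, and in the hippocampus between 5.94 and 66.1 CPM with a median of 56.2 CPM. Lumican, which spaces collagen fibrils, is encoded by Lum at chr10:97400990-97408577, the neighbouring region of the same chromosome. Lum was at 1.28 ± 0.366 CPM (SD, n = 12) in AA cortex and 4.25 ± 1.57 CPM (SD, n = 11) in AA hippocampus. Fibromodulin is a further collagen-binding proteoglycan, and Fmod (chr1:133964992-133976015) was at 10.9 ± 4.22 CPM in AA cortex and 7.07 ± 3.81 CPM in AA hippocampus. This difference did not pass edgeR's test (-0.63 on the log2 scale, adjusted p = 0.175). In SS mice Fmod was at 14.5 ± 8.16 CPM in the cortex and 15.2 ± 12.6 CPM in the hippocampus.

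Aldh1a2 encodes the retinaldehyde dehydrogenase that makes retinoic acid and lies at chr9:71122630-71203527. Slc6a13 (chr6:121277186-121316121) encodes a GABA and taurine transporter, and Slc22a6 (chr19:8595356-8605663) an organic anion transporter. All 3 lie on the plus strand. Their cortical medians over all libraries were 3.37, 6.63 and 4.86 CPM, and their hippocampal medians 3.70, 6.69 and 2.91 CPM, each with a spread of at least 8.64-fold between the lowest and the highest library. Igf2, an imprinted gene for a fetal-type growth factor, lies at chr7:142204503-142220694 on the minus strand and was the scarcest of the 10 over all libraries, with medians of 0.592 CPM in the cortex and 0.631 CPM in the hippocampus. Of its exonic bases, 58.4% are shared with a readthrough transcript on the same strand (Gm49394, 0 to 2 reads per cortex library and 0 to 4 per hippocampus library), and reads on more than one gene were not counted, so the level of Igf2 is uncertain.

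Per kilobase of exon, the order of the levels differed between the tissues. In AA cortex Fmod was highest at 2.77 CPM per kb, ahead of Slc22a6 at 1.18 and Slc6a13 at 1.09 CPM per kb, and Igf2 (0.103) and Col3a1 (0.0947) were lowest. In AA hippocampus Dcn led at 3.37 CPM per kb, ahead of Fmod at 1.79 and Slc6a13 at 1.28 CPM per kb, and Col3a1 was lowest at 0.157 CPM per kb. Slc22a6 and Slc6a13, neighbours in the cortical order, ranged over 2.06 to 10.01 CPM and 3.80 to 13.1 CPM among AA mice and did not differ beyond that spread.

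Across the 7 groups of more than 1 mouse, which leaves out the AA + minocycline mouse, the means of a gene differed by 1.62-fold to 3.13-fold between the highest and the lowest group of the cortex, and by 1.45-fold to 3.25-fold in the hippocampus. Among these 7 groups, SS + RSD mice had the highest cortical mean of Slc6a13, Col1a1, Col1a2, Col3a1, Aldh1a2, Slc22a6 and Fmod, and AA + RSD mice that of Igf2, Dcn and Lum, which includes mouse 9674. In the hippocampus SS mice had the highest of the 7 means for 7 of the 10 genes, among them Dcn at 54.7 ± 13.3 CPM (SD, n = 7). The means of neighbouring groups in these orders lay within the larger SD of the pair, except SS + RSD and SS mice for Aldh1a2 and Slc6a13 in the cortex.

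**Figure D1:**
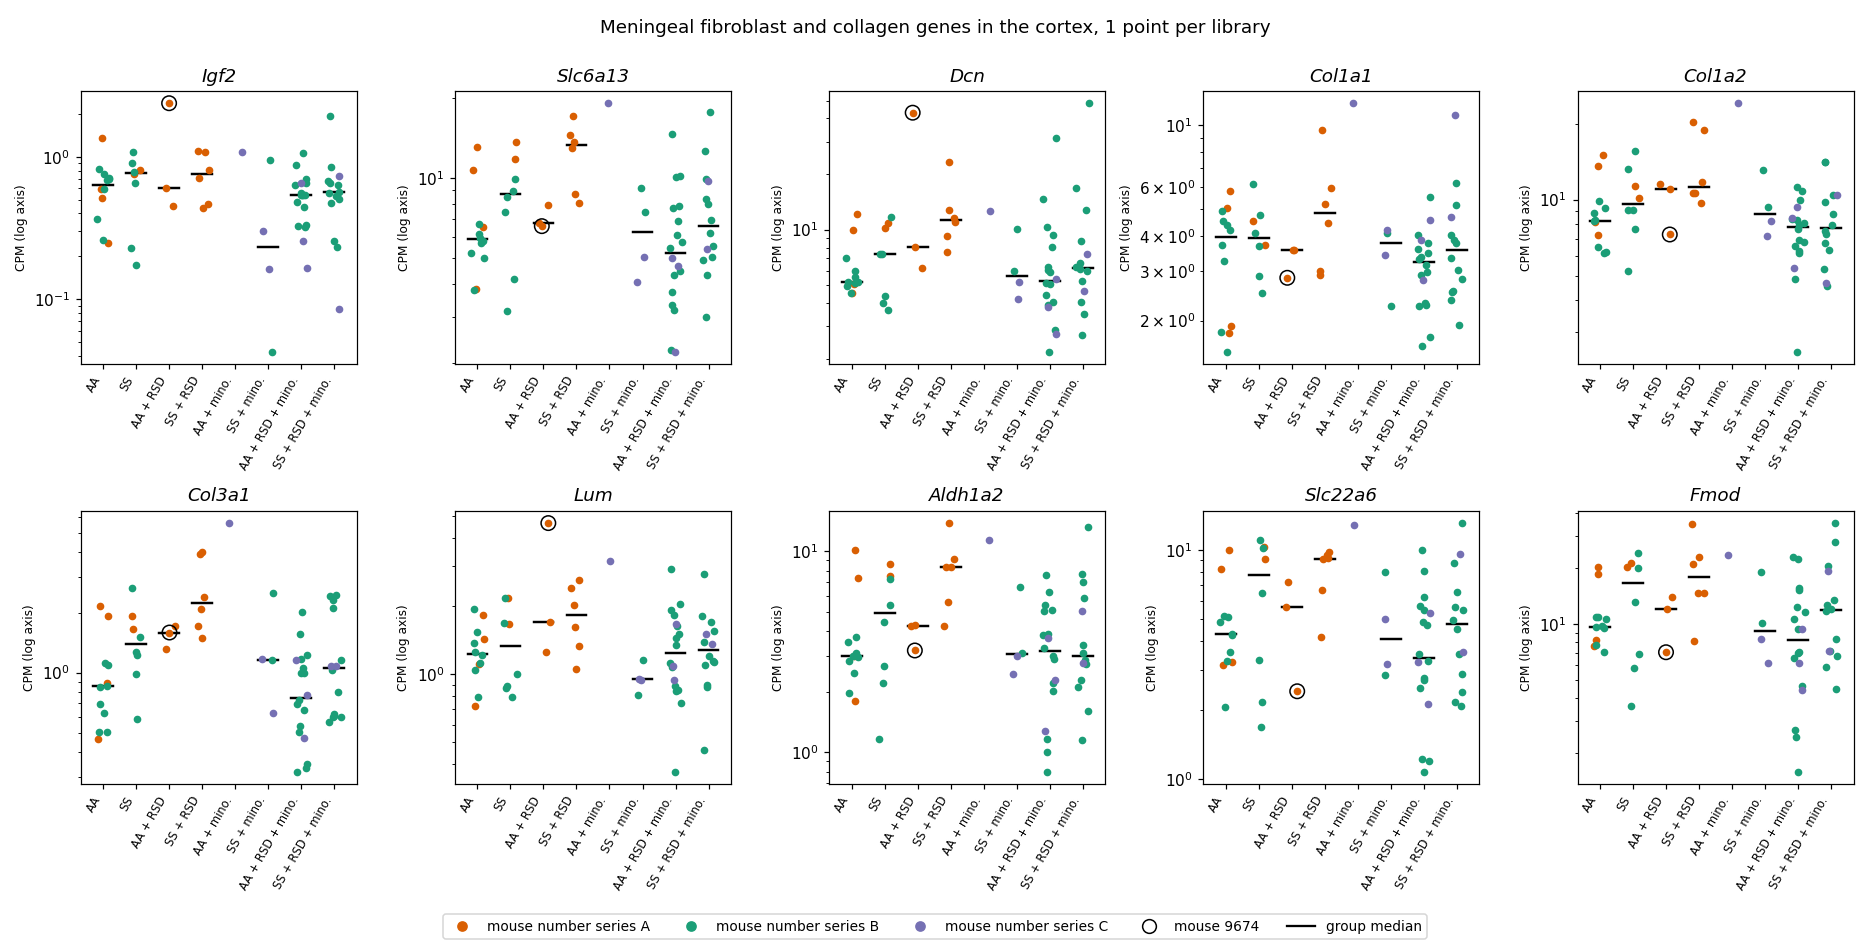
Level of each of the 10 genes in the cortex, in CPM on a log axis, with 1 point per library, groups along the horizontal axis, colours for the number series and a bar at each group's median. The group ranges overlap for nearly every gene, and mouse 9674 (circled) stands high for Dcn and Lum.

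**Figure D2:**
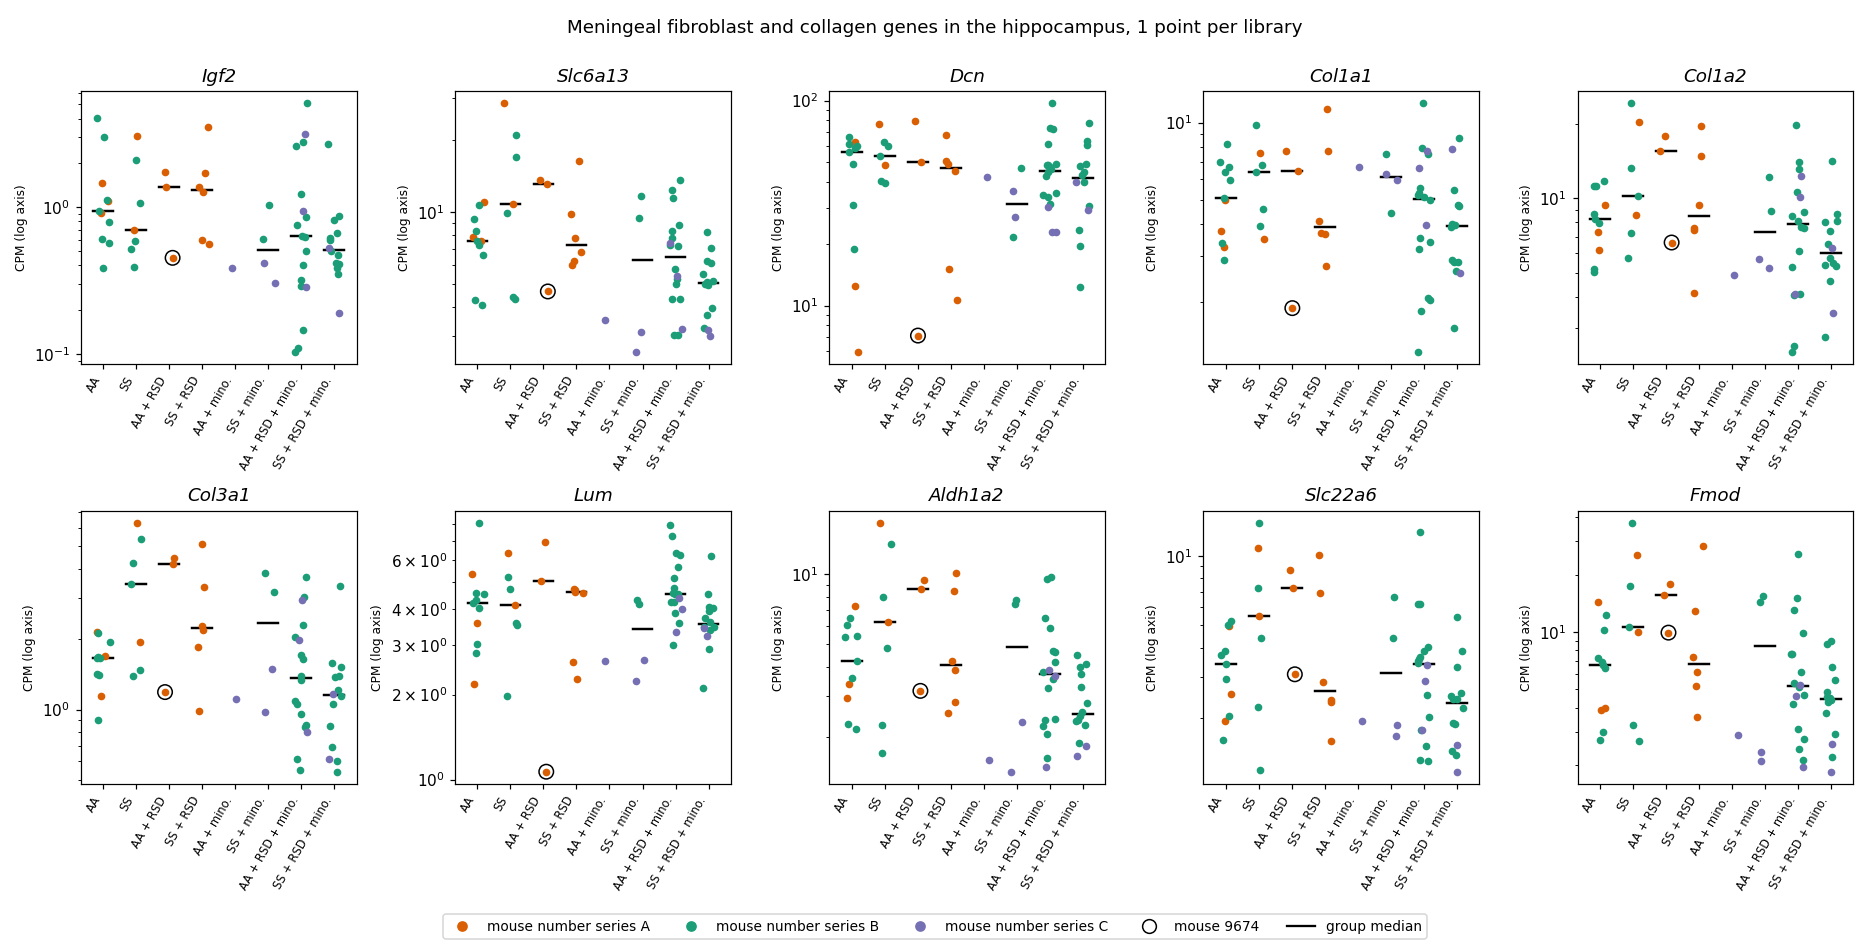
Level of each of the 10 genes in the hippocampus, in CPM on a log axis, drawn as for the cortex. Dcn is near 50 CPM in most libraries and low in a few, among them mouse 9674 (circled) at 7.13 CPM.

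Untreated control mice were used to ask in which tissue each gene was higher. In AA mice 4 of the 10 genes passed the test, all higher in the hippocampus, where 36.6% of the genes tested were called in either direction. Dcn was higher by 2.81 (SE 0.29) on the log2 scale, 7.01-fold (adjusted p = 1.54e-10), and Lum by 1.72 (adjusted p = 6.9e-09). Igf2 followed with 1.09 (adjusted p = 0.0175) and Col3a1 with 0.72 (adjusted p = 0.0285). Without mouse 5844 the adjusted p of Col3a1 was 0.0529. Col1a1, higher by 0.54, missed the threshold at an adjusted p of 0.0517 and passed it with each mouse as a block, at 0.63 (adjusted p = 0.00203). DESeq2 called it as well, and so did edgeR without mouse 9631, at 0.67 (adjusted p = 0.0177). In SS mice 3 genes passed, against 30.6% of all genes tested. Dcn was higher by 2.83 (adjusted p = 2.43e-08), Lum by 1.54 (adjusted p = 5.56e-06) and Col3a1 by 1.18 (adjusted p = 0.00389). Dcn and Lum were the pair with a fitted difference of over 1 on the log2 scale in both genotypes, and whether the difference itself varied with genotype was not tested.

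The tissues were also compared for other matrix genes. The counts below are read against the 36.6% of all genes that were called in AA mice in either direction. In AA mice 3 of 5 tested small leucine-rich proteoglycans outside the 10 genes rose in the hippocampus, namely Ogn (osteoglycin) by 1.67, Prelp by 0.84 and Bgn (biglycan) by 0.61. Of 21 genes for collagen processing, 7 were higher in the hippocampus and 0 lower. Among 20 other collagen chains 9 were higher and 3 lower. Of 21 other meningeal and perivascular fibroblast genes, 6 were higher and 4 lower. Over all genes the called ones were split much alike, with 3557 higher and 3481 lower. The pathways of the other members gave 5 higher and 2 lower of 14 retinoic acid genes, 3 higher and 4 lower of 11 genes of the IGF system, and 0 higher and 1 lower of 10 transporters. All 9 choroid plexus markers and all 5 ependymal markers were also higher in the hippocampus of AA mice, with medians of 3.70 and 1.29 on the log2 scale, and their part in the difference was not tested.

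SS and AA mice were compared at rest, under RSD, and under RSD with minocycline. These comparisons draw on one model of all groups in a tissue. Over all stress, treatment and genotype comparisons, 2.17% to 27.7% of all genes had an unadjusted p under 0.05, the share against which such counts are read. The 10 genes varied together among mice of one group, as described below. A count of signs over them, in any comparison, is therefore not 10 separate observations. In the cortex at rest, where 0.214% of all genes were called, 0 of the 10 genes passed edgeR's test, 0 passed DESeq2's, and 0 had an unadjusted p under 0.05. All 10 fitted differences were positive, with a median of 0.33 on the log2 scale. The largest, for Col3a1, was 0.63 (SE 0.32), with levels of 0.464 to 2.16 CPM (median 0.852) in AA mice and 0.582 to 2.66 CPM (median 1.39) in SS mice. The groups overlapped over most of their range.

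In the hippocampus at rest the values of SS mice reached higher. The test called 0 of the 10 genes (0.159% of all genes were called), DESeq2 called 0, and 5 genes had an unadjusted p under 0.05, against 3.71% of all genes. Col3a1 ran from 0.905 to 2.15 CPM (median 1.67) in 11 AA mice and from 1.40 to 6.28 CPM (median 3.44) in 7 SS mice, of which 4 lay above every AA mouse. The fitted difference was 1.08 (SE 0.34, adjusted p = 0.482). Fmod ran from 2.71 to 14.3 CPM (median 6.68) in AA mice and from 2.67 to 37.3 CPM (median 10.7) in SS mice, of which 3 lay above every AA mouse, with a difference of 1.09 (SE 0.45, adjusted p = 1.0). Slc22a6 (0.92), Slc6a13 (0.83) and Aldh1a2 (0.75) gave adjusted p-values from 0.862 to 1.0. Dcn and Lum, the genes high in this tissue, were at 0.31 and -0.02. Taken within number series, the median over the 10 genes was 1.12 for series A and 0.46 for series B, and 0 were called in each.

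Under RSD, 0 of the 10 genes passed in the cortex (0.493% of all genes) and 0 in the hippocampus (0.78%), with 0 genes at an unadjusted p under 0.05 in both tissues and 0 called by DESeq2. In the cortex Slc6a13 was at 6.58 (mouse 9674), 6.74 and 7.88 CPM in the 3 AA + RSD mice and between 8.04 and 17.1 CPM (median 13.3) in the 6 SS + RSD mice. The groups did not overlap, as was the case for 1.76% of the 14761 cortex genes whose log2 CPM averaged 0 or more. Slc6a13 did not pass the test across all genes. When stressed mice of both genotypes had received minocycline, 0 of the 10 passed in either tissue, against 0.624% of all cortex genes and 2.74% of all hippocampus genes. At an unadjusted p under 0.05 there were 1 gene in the cortex and 2 in the hippocampus, and DESeq2 called 0. The signs were opposite, with 10 of 10 fitted differences positive in the cortex (median 0.37) and 0 of 10 in the hippocampus (median -0.42). Both counts run over genes that varied together. The interaction of genotype and RSD was called for 0 of the 10 genes in each tissue, against 0.236% of all cortex genes and 0.0474% of all hippocampus genes, and DESeq2 called 0. In the hippocampus 3 of them had an unadjusted p under 0.05 (6.66% of all genes), with Slc22a6 at -1.48, Col3a1 at -1.40 and Slc6a13 at -1.08. The AA + RSD mice of both tissues, used under RSD and in the interaction, include mouse 9674, whose libraries went against their tissue labels.

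RSD itself was compared with no RSD within each genotype. In the cortex of SS mice all 10 genes had higher fitted levels after RSD (median 0.44, against 0.08 over all genes), but 0 were called where 2.57% of all genes were, 1 had an unadjusted p under 0.05, and DESeq2 called 0. Slc6a13 lay at 8.04 to 17.1 CPM (median 13.3) in SS + RSD mice and at 3.14 to 13.7 CPM (median 8.67) in SS mice. Within number series A, which holds 2 of the 8 SS mice and all SS + RSD mice, the median over the 10 genes was 0.01. In the hippocampus of SS mice the median was -0.38, with 0 of 10 called (3.11% of all genes), 0 at an unadjusted p under 0.05 and 0 called by DESeq2.

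In the AA mice 0 of the 10 passed after RSD in the cortex (0.853% of all genes) and 0 in the hippocampus (1.19%), with 2 and 1 at an unadjusted p under 0.05 and 0 called by DESeq2. The cortical values turned on mouse 9674. Dcn was at 6.18, 8.01 and 42.995 CPM in the 3 AA + RSD mice, the last being mouse 9674, against 4.51 to 12.1 CPM in AA mice, and Lum was at 1.25, 1.70 and 4.63 CPM against 0.721 to 1.94 CPM. All 9 choroid plexus markers were higher in this comparison, by a median of 4.23, and the library labelled cortex of mouse 9674 held 5298 CPM of Ttr. Their part in the values of the 10 genes was not tested. Leaving out mouse 9646 instead, Dcn passed the test at 2.01. The AA + RSD mice were then 9643 and 9674, so that call rests on a library that went against its tissue label. In the hippocampus the AA + RSD mice gave 1.19 (mouse 9674), 4.19 and 4.43 CPM for Col3a1, 2 of 3 above the highest AA mouse at 2.15 CPM.

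Minocycline was tested on top of RSD in both genotypes. In the cortex of SS mice Col3a1 and Col1a2 were lower in SS + RSD + minocycline than in SS + RSD mice, and this was the only treatment comparison in which any of the 10 genes passed. Col3a1 was at 3.91, 1.70, 1.49, 2.08, 2.40 and 4.01 CPM in the 6 SS + RSD mice and between 0.569 and 2.46 CPM (median 1.06) in the 14 SS + RSD + minocycline mice. Its values overlapped, with the mice not given minocycline reaching higher. The fitted difference was -1.06 (SE 0.34, adjusted p = 0.0456). Col1a2 was at 18.9, 9.70, 11.7, 10.6, 10.6 and 20.2 CPM in SS + RSD mice and between 4.55 and 14.1 CPM (median 7.73) with minocycline, a difference of -0.70 (SE 0.22, adjusted p = 0.0432). The partner chain Col1a1 had a median of 4.85 CPM without and 3.57 CPM with minocycline and did not pass. All 10 fitted differences were negative, with a median of -0.55 against -0.05 over all genes, and 8.85% of all genes were called in this comparison, which is the background against which 2 of 10 is read.

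Both calls were close to the threshold and rested on a difference that the number series shares. With the number series as a term, 0 of the 10 genes and 0 of all genes were called, with Col1a2 at -0.57 and Col3a1 at -0.63, and the median of the 10 was 0.14. In that fit series A and B meet only in the SS controls, 2 mice of series A and 6 of series B. It therefore had little power for any gene and cannot tell minocycline and the series apart. With any 1 of the 6 SS + RSD mice left out, 0 or 1 of the 10 genes was called. Without mouse 7078, Col3a1 missed the threshold (-1.04, adjusted p = 0.0607). In the hippocampus 0 of the 10 genes passed edgeR's test, where 5.96% of all genes were called, although 7 had an unadjusted p under 0.05, as did 26.8% of all genes, and DESeq2 called Col3a1 (-1.14, adjusted p = 0.0297). Hippocampal Col3a1 was at 3.36, 1.85, 0.986, 2.27, 2.19 and 5.13 CPM in SS + RSD mice and between 0.543 and 3.38 CPM (median 1.155) with minocycline. That is a difference of -1.14 with an adjusted p of 0.0523 in edgeR's test. The median over the 10 genes was -0.86 there, and -0.14 once the number series was a term of the model.

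The genes around the 10 did not all move with them in this comparison. The counts below are read against the 8.85% of all cortex genes and 5.96% of all hippocampus genes that were called. Among 21 other meningeal and perivascular fibroblast genes of the cortex, 2 were lower and 0 higher, the thrombomodulin gene Thbd (-0.67) and the transcription factor gene Foxc1 (-0.52), and 0 of the 21 had a positive fitted difference. Other collagen chains went the other way, with 5 of 20 higher and 0 lower, led by Col16a1 (1.18), Col6a1 (1.39) and Col5a1 (1.89). Here the mice without minocycline are of series A and those with it of series B or C. Many of these chains were also lower in series A than in series B of the control cortex, where 40.3% of all genes were called. Minocycline and the series cannot be told apart for them. Of 22 genes for collagen processing 5 were higher and 3 lower, and Serpinh1, the collagen chaperone gene, was among the lower ones at -0.65. Prelp was the 1 of 5 other proteoglycans to pass, at -0.55. The retinoic acid, IGF and transporter lists gave 0 calls by edgeR. In the hippocampus the lists gave 1 of 22 fibroblast genes lower (Pcolce, an enhancer of procollagen processing, at -1.09) and 4 of 20 collagen chains higher. Summed border macrophage markers lay between 7.91 and 14.2 CPM in SS + RSD cortex and between 3.0004 and 12.6 CPM with minocycline, none of the 5 markers at 0 in a group, and 3 of 7 endothelial markers were lower. The mural marker Acta2 (-1.03) and the astrocyte marker Aldh1l1 (-0.46) were lower as well, and in the hippocampus so were Pecam1 of the endothelium (-0.51), Aldh1l1 (-0.40) and the choroid plexus marker Kl (-1.34). Their part in the values of the 10 genes was not tested.

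In AA mice given RSD, minocycline gave 0 of 10 calls in the cortex (3.6% of all genes) and 0 in the hippocampus (2.67%), with 3 and 2 at an unadjusted p under 0.05 and 0 called by DESeq2. The cortical median was -0.35 and the hippocampal median -0.66. Without mouse 9674 the cortical difference of Dcn went to 0.02. Minocycline without RSD was tested in SS mice with 4 against 8 cortex libraries and 4 against 7 hippocampus libraries. In the cortex edgeR called 0 of the 10 genes and 0.0% of all genes. It also called 0 of the 10 and 0.0% of all genes of the hippocampus, with 0 and 1 of the 10 at an unadjusted p under 0.05 and 0 called by DESeq2. Within number series B the medians over the 10 genes were 0.19 and -0.06, against -0.40 and -0.68 with all mice. Comparisons with a group in common (SS, SS + RSD or AA + RSD) share those mice and are not independent of each other.

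**Figure D3:**
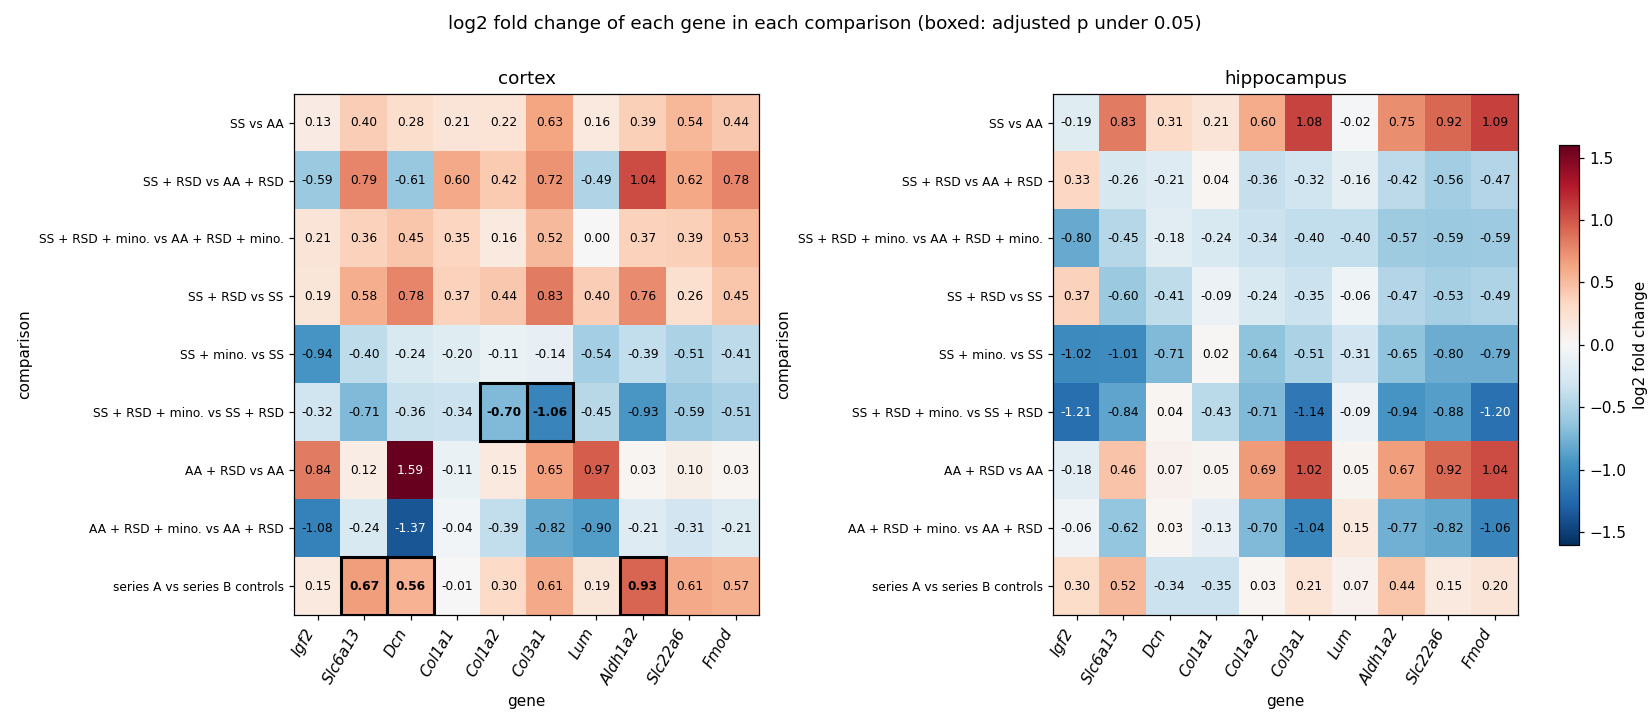
Fitted log2 fold change of each of the 10 genes (columns) in the comparisons within each tissue (rows), with cells boxed where the adjusted p was under 0.05. The interaction of genotype and RSD and the comparison of the tissues are not drawn. Boxes appear for Col1a2 and Col3a1 under minocycline in stressed SS cortex, and for Aldh1a2, Slc6a13 and Dcn between control series in the cortex.

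The number series was examined in control mice alone, since no treatment differs there. In the cortex 3 of the 10 genes were higher in series A than in series B, with genotype as a term, where 40.3% of all genes were called. Aldh1a2 was higher by 0.93 (adjusted p = 0.0159), Slc6a13 by 0.67 (adjusted p = 0.016) and Dcn by 0.56 (adjusted p = 0.0358). The call of Dcn was lost without mouse 9631 (0.50, adjusted p = 0.0834). In AA mice Aldh1a2 was at 5.59 ± 3.87 CPM (SD, n = 4) in series A and 2.97 ± 0.567 CPM (SD, n = 8) in series B. The 2 SS mice of series A were at 7.54 and 8.63 CPM, above the mean of 3.87 ± 2.27 CPM (SD, n = 6) in series B. The median over the 10 genes was 0.57, larger than that of SS + RSD over SS mice. In the hippocampus 0 of 10 were called against 40.8% of all genes, 0 had an unadjusted p under 0.05, DESeq2 called 0, and the median was 0.18. Of 21 other fibroblast genes of the cortex, 8 were higher and 0 lower, a share near that of all genes called, and of 20 other collagen chains 11 were lower. What the number series stands for is not given in the sources used here.

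The 10 genes also varied together among mice of one group. Each gene's log2 CPM was expressed as its deviation from the mean of its group, and the deviations were correlated over libraries. In the cortex (65 libraries) all 45 pairs of the 10 genes had a positive Pearson correlation, with a median of 0.62, and 34 pairs exceeded 0.5. The closest pair was Slc6a13 and Aldh1a2 at 0.95, and the loosest Igf2 and Col1a1 at 0.30. In the hippocampus (63 libraries) the median was 0.60, 44 of 45 pairs were positive, and Slc6a13 and Aldh1a2 again led at 0.94. Points of one tissue share dissection, sequencing and scaling, so these correlations are descriptions and carry no p. The mean of the 10 genes correlated at 0.05 with the log2 number of reads on genes in the cortex and at -0.29 in the hippocampus.

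Dcn and Lum left the common pattern in the hippocampus. Against the mean of the other 9 genes, Dcn correlated at 0.76 in the cortex and at 0.22 in the hippocampus, and at 0.81 and 0.13 without mouse 9674. Lum was at 0.59 and 0.40. Aldh1a2, Slc22a6, Fmod, Col3a1 and Slc6a13 kept values between 0.84 and 0.95 in both tissues. Col1a1 and Lum were the least related pair of the hippocampus, at -0.01, and at -0.20 without mouse 9674. Col1a2 followed the others more closely in the hippocampus (0.91) than in the cortex (0.72), and no test of that difference was made.

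**Figure D4:**
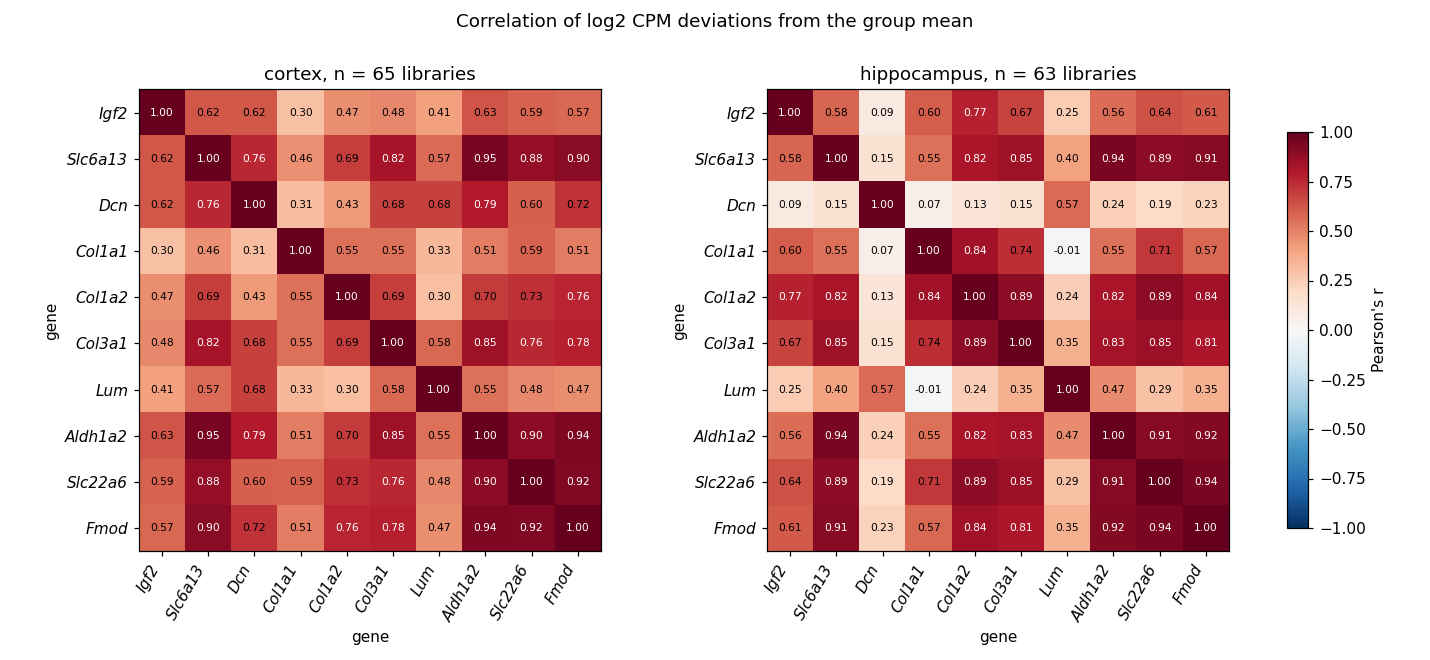
Pearson correlation between each pair of the 10 genes, from deviations of log2 CPM from the group mean, in the cortex (65 libraries) and the hippocampus (63 libraries). Colour gives r, and the rows of Dcn and Lum are pale in the hippocampus.

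The mean of the 10 genes moved with the other genes of their cell type, and single genes did so to unlike degrees. The mean deviation of the 10 correlated at 0.94 in the cortex and at 0.91 in the hippocampus with that of 22 other meningeal and perivascular fibroblast genes. Taken singly, the genes ran from 0.49 (Col1a1) to 0.93 (Aldh1a2) in the cortex. In the hippocampus they ran from 0.29 (Dcn) to 0.90 (Fmod), with Lum at 0.49. Border macrophage markers, from cells that live in the same membranes, gave 0.83 and 0.77, whereas choroid plexus markers gave 0.29 and 0.37 and neuron markers -0.10 and -0.44. Other collagen chains, many of them made by vessel and glial cells, gave 0.04 in the cortex and 0.42 in the hippocampus. Igf2 in the hippocampus correlated at 0.73 with choroid plexus markers, the highest of the 10 genes, against 0.47 in the cortex.

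Among all other genes, those most like the mean of the 10 were sought among 14752 cortex genes over 68 libraries and 14778 hippocampus genes over 66 libraries, the identical pair included. In the cortex they were Aebp1 (r = 0.93), which encodes a collagen-binding secreted protein, the sulphate transporter gene Slc13a4 (0.91), the complement inhibitor gene Serping1 (0.89), the scavenger receptor gene Colec12 (0.89), the connexin gene Gjb2 (0.89), the dicarboxylate transporter gene Slc13a3 (0.88), the amino acid transporter gene Slc6a20a (0.87) and Ogn (0.85). In the hippocampus they were Slc6a20a (0.89), Colec12 (0.89), the homeobox gene Alx4 (0.85), Aebp1 (0.83), Gpr182 (0.82), Bgn (0.81), Slc13a3 (0.81) and Bmp7 (0.81). Aebp1, Colec12, Slc13a3 and Slc6a20a stood in both sets. Without the identical pair, 7 of the 8 cortical genes remained, with Crabp2 (0.86) in place of Ogn, and 8 of the 8 hippocampal genes.

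The level of these genes in one tissue of a mouse said little about the other tissue. Over 63 mice with both libraries, only Col1a1 correlated between cortex and hippocampus after adjustment over the 10 genes, with r = 0.40 (permutation within groups, 100000 draws, p = 0.00105, adjusted p = 0.0105) and rho = 0.36 (permutation p = 0.00492, adjusted p = 0.0492). Without the 2 mice farthest from the median r was 0.35. In series B alone it was 0.35 with an adjusted p of 0.151 over 42 mice. Among series B mice given RSD and minocycline, hippocampal Col1a1 tended to be lower in mice later in the sample list. AA mice listed from 5898 on deviated by -1.71 to -0.32, earlier ones by -0.27 to 1.47. SS mice listed from 9895 on deviated by -1.24 to -0.39, earlier ones by -0.41 to 1.18. Cortical deviations of the later mice had both signs. The permutation did not separate earlier from later mice, and the part of this order in the correlation was not tested. The other 9 genes had r from -0.19 to 0.12 (permutation, adjusted p from 0.595 to 0.812), and the mean of all 10 had r = 0.01. Without mouse 9674, whose libraries went against their tissue labels, Dcn reached r = 0.25 (permutation, adjusted p = 0.137) and rho = 0.33 (permutation, adjusted p = 0.0422). Thus Slc6a13 and Aldh1a2, which followed each other closely within a tissue, gave 0.09 and 0.05 between tissues.

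**Figure D5:**
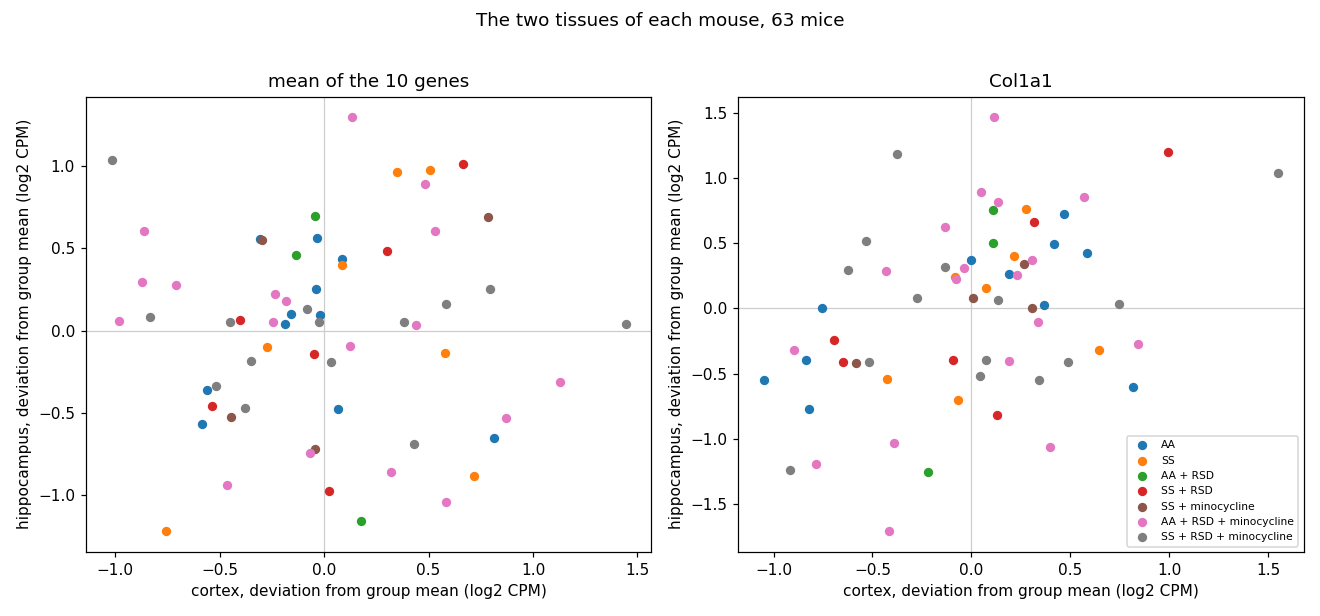
Deviation of log2 CPM from the group mean in the cortex (horizontal) and in the hippocampus (vertical) of the same mouse, 63 mice. The points for Col1a1 rise to the right (r = 0.40), and the mean of the 10 genes shows no slope (r = 0.01).

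Levels of Dcn were also set beside neuron markers of the brain part a library represented. Mouse 9674 was at 42.995 CPM in the library labelled cortex and at 7.13 CPM in the library labelled hippocampus. Mouse 9631 (AA) had 5.94 CPM in the hippocampus, the lowest of that tissue, with hippocampal neuron markers at 723 CPM, the highest. In the cortex the high values of 48.4 CPM (mouse 5801), 31.4 CPM (mouse 5646), 23.3 CPM (mouse 9621) and 16.7 CPM (mouse 9890) came with cortical neuron markers between 242 and 303 CPM, against a median of 597 CPM. Their hippocampal neuron markers lay between 38.8 and 48.4 CPM, inside the 21.4 to 68.3 CPM of the cortex libraries other than mouse 9674. Mouse 5897, next below these in Dcn at 14.6 CPM, had the highest cortical neuron markers, 835 CPM. Mouse 9813 had the lowest apart from mouse 9674, 225 CPM, with 12.8 CPM of Dcn. Over all cortex libraries Dcn correlated with cortical neuron markers at -0.62, and at -0.56 without mouse 9674. In the hippocampus Dcn and hippocampal neuron markers correlated at 0.11 over all libraries and at -0.46 without mouse 9674. The part of the dissection in the levels of Dcn was not tested.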

How the data were processed

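Bulk RNA-seq of cortex and hippocampus was analysed. According to the labels, the authors prepared directional libraries from polyadenylated RNA, sequenced single reads, aligned them to GRCm39 with STAR and deposited, per tissue, the raw read counts per GENCODE gene, without normalization. The strand setting of the counting and the annotation release are not given in the sources used here. Summary lines that name no gene (in the cortex a median of 12.4% of reads unmapped, 4.98% mapping to several places, 8.25% outside genes and 1.25% on more than one gene, and in the hippocampus 13.3%, 4.83%, 7.59% and 1.22%) stayed out of library sizes and tests. Also left out were 3 table columns without a matching grouped sample and 1 library whose labels name different tissues.

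Counts were filtered with filterByExpr by group (minimum count 10, minimum total 15), scaled by TMM and compared with the quasi-likelihood test of edgeR 4.0.16 in R 4.3.3, with Benjamini-Hochberg adjustment over all genes tested and a threshold of 0.05. Comparisons within a genotype used all groups of that genotype and tissue, those between genotypes all groups of the tissue, those between number series the controls with genotype as a term, and those between tissues the controls of both tissues. The numbering pairs tissues by mouse: in 18 of 18 control mice the deviations of the tissues from their group means correlated above 0.1 (median 0.55). Deviations of log2 CPM used a prior count of 2. Correlations between the tissues of a mouse were tested by permutation within groups and adjusted over the 10 genes. The tests were tested on simulated data. Gene positions came from GENCODE annotation of GRCm39, and promoters from RefSeq. Alternatives included DESeq2 1.42.0, RLE size factors, no filter, the number series as a term and leaving out mice. The fits within number series A or B, the correlation without mouse 9674 or in series B only, and the ranking of like genes without the identical pair were chosen after seeing the data. The 10 genes, the 14 gene lists and the tissue markers were chosen with earlier results of these data known. All 10 genes are named. From each list up to 3 called genes of smallest adjusted p were eligible, and in each tissue the 8 genes most like the mean of the 10 were named.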

Additional observations from a re-analysis of the deposited data

Results flagged for a closer look

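Of 60 combinations of gene and group with 4 to 10 libraries, 3 held a library far from the others by Dixon's criterion, and chance gives about 1 in 20. In SS + RSD cortex, mouse 9621 had 23.3 CPM of Dcn, against 12.8 CPM in the next mouse. The same mouse had 16.4 CPM of Slc6a13 in the hippocampus, against 9.85 CPM in the next. In SS + minocycline cortex, mouse 9888 had 6.62 CPM of Aldh1a2, against 3.11 CPM in the next.

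The single AA + minocycline mouse, 10639, entered no comparison. Its cortex lay above the highest of the 12 AA mice for 9 of the 10 genes. Collagen levels stood out, with 24.1 CPM of Col1a2 (highest AA mouse 15.03 CPM), 11.95 CPM of Col1a1 (5.79) and 5.61 CPM of Col3a1 (2.16). It had 12.6 CPM of Dcn (12.1), 3.15 CPM of Lum (1.94) and 23.6 CPM of Fmod (20.3). Transporter and enzyme genes were at 19.1 CPM for Slc6a13 (13.1), 12.8 CPM for Slc22a6 (10.01) and 11.4 CPM for Aldh1a2 (10.1). In its hippocampus none of the 10 genes lay above the highest AA mouse, with Slc6a13 at 3.51 CPM and Col1a1 at 6.68 CPM. With 1 mouse there is no replicate check, and the cause was not tested.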

How the results depend on the processing

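Most values kept their direction and their side of the threshold: 259 counts of genes called (17 moved by over 1.5 times), 273 medians (3 moved) and 454 fitted changes of single genes (23 lost and 12 gained a call, and 6 turned). The exceptions lay mainly in minocycline under RSD in SS mice. In the cortex, where 2 genes were called, RLE size factors gave 1, the fit without the library labelled 7078 gave 1, and no filter, the number series as a term, keeping the identical libraries and fitting only the groups compared each gave 0. Leaving out each SS + RSD mouse gave 0 to 1. In the hippocampus, where 0 were called, DESeq2 gave 1, fitting only the groups compared gave 4, and leaving out each SS + RSD mouse gave 0 to 1, the 1 without mouse 5400. In AA cortex, RSD and minocycline under RSD each gave 0 to 1 when an AA + RSD mouse was left out, the 1 being Dcn without mouse 9646 (2.01 and -1.79). Those fits kept mouse 9674, whose libraries went against their tissue labels. Under minocycline in stressed AA cortex, leaving out each AA + RSD mouse gave -1.45 to 0.021 for Igf2 and -1.79 to 0.018 for Dcn, the positive values without mouse 9674. With the number series as a term, Slc6a13 and Aldh1a2 turned to 0.18 and 0.17 in SS + RSD + minocycline against SS + RSD cortex and to 0.14 and 0.17 in the hippocampus. Correlations between tissues turned to 0.15 for Lum without mouse 9674, and in series B only to 0.19 for Lum, -0.10 for Slc6a13, -0.074 for Col3a1 and -0.075 for Aldh1a2. The cause was not tested. With each mouse as a replicate block, the comparison of tissues called 5 genes in AA mice, adding Col1a1, and 3 in SS mice, and changed no other call. Within-tissue groups hold different mice, so no paired analysis was possible for them.

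Depth limits Igf2 most, with as few as 1 read in a cortex library. The comparisons with AA + RSD mice are limited by their number, 3, and those of RSD with controls or with minocycline by the number series.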
